A study of Mus musculus with 9 samples.

Results

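This report concerns the comparison of the Smarca5 and Smarca1 double knockout (DKO) with wild type (WT) in embryonic mouse cortex, 6 of the 9 libraries of the series. The members were taken from the genotype labels: 3 libraries labelled Smarca1 -/-; Cre +/- and 3 labelled Smarca1 +/+; Cre -/-. A further 3 libraries labelled Smarca1 -/-; Cre -/- (Smarca1 KO) entered the fit, where they share the estimate of the spread, and their levels are given beside those of the compared groups. All were whole cortical tissue of C57Bl/6 embryos at E13.5. The design text of the series names the first group as lacking both genes. The 2 compared groups thus differ in the Smarca1 genotype, the Cre allele and Smarca5, and their comparison alone cannot tell effects of these apart. The Smarca1 KO libraries share the Smarca1 label of DKO without Cre, so their levels show where that genotype alone stood. The Cre allele and Smarca5 cannot be told apart here. Which promoter drives the Cre, which exons are deleted and what the Smarca5 alleles of the groups without Cre are was not known from the sources used here. Nothing in the labels ties a replicate to an embryo of its own, so each p-value reflects spread among these libraries that could be technical.

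Smarca5 (SNF2H) and Smarca1 (SNF2L) are the ATPases of the ISWI chromatin remodellers, complexes that slide nucleosomes along DNA and set regular spacing between them, and that have been linked to replication, transcription and binding of the insulator protein CTCF. In the cortex at this age radial glia, the stem cells that line the ventricle, divide to renew themselves or to make neurons, either directly or through intermediate progenitors. Notch signalling between neighbouring cells holds radial glia in the progenitor state, and proneural factors such as Neurog1 and Neurog2 start neuron formation.

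Counts summed over genes were 28982116 to 46007527 per library in the compared groups. Levels are CPM, each library's counts divided by its total and scaled by the TMM method. The first principal component, 27.9% of the variance, placed the DKO libraries between −27.55 and −17.16 and the WT libraries between 21.8 and 27.03. Markers of tissue next to the cortex varied within groups. Summed over 18 meningeal and mesenchymal genes the level was 773.6, 356.9 and 325.6 CPM in DKO replicates 1 to 3 and 588.6, 619.4 and 523.5 CPM in WT. Over 23 cortical hem and choroid plexus genes it was 782.8, 431.0 and 641.4 CPM in DKO, compared with 338.4, 428.5 and 450.2 CPM in WT, and over 13 blood genes 884.2 to 1462.8 CPM in DKO and 1402.1 to 1879.0 CPM in WT. The 4 Y-linked genes summed to 238.5 to 247.0 CPM in DKO and 257.9 to 265.8 CPM in WT, so both groups expressed them. Smarca5 (chromosome 8, 80698507 to 80739497 on GRCm38), the check of the label, was in DKO at 84.4, 79.2 and 77.2 CPM, 30.1% of the WT level, where the libraries had 267.4, 270.7 and 262.0 CPM. Of its 31-base words 32.8% occur in transcripts of other genes. Smarca1 (chromosome X, 47809368 to 47892974) was at 37.9, 38.8 and 38.4 CPM in DKO, compared with 37.8, 36.4 and 37.3 CPM in WT (log2 fold change 0.05, SE 0.073, edgeR adjusted p = 0.709), and since the deleted exons are unknown this checks nothing.

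In DKO 885 genes rose and 1002 fell of 15773 tested, which is 5.61% and 6.35% of the genes, at an adjusted p under 0.05 in edgeR's quasi-likelihood test. Most changes were small. The median size of the log2 fold change was 0.48 among rises and 0.33 among falls, against 0.14 over all genes, and 156 rises and 68 falls exceeded 2-fold. Genes that fell were the more abundant, with a median of 48.7 CPM against 20.8 CPM for those that rose and 24.7 CPM over all genes. Their longest transcripts had a median of 4031 bases, against 3278 bases for rises and 3396 bases over all genes. In 41.3% of genes tested the 3 DKO values did not overlap the 3 WT values, so the lack of overlap given for single genes below is common in these data. The counts of calls depended on single libraries. Without WT replicate 1, 2 or 3 the rises numbered 175, 207 and 209 and the falls 259, 305 and 320. Without DKO replicate 1, 2 or 3 there were 1120, 314 and 230 rises and 1047, 439 and 322 falls, and without Smarca1 KO replicate 3 there were 1521 rises and 1720 falls. With the Y-linked level as a covariate, taken as the sum of the genes' log2 CPM, 3 rises and 3 falls were left. The 3 groups explain a share of 0.771 (R2) of this log2 sum, which is not the CPM sum given above. Differences that follow the Y-linked genes and those between the groups cannot be told apart. Of 247 called genes chosen to be named by rule, 93 kept their call in all 9 fits without 1 library, and where a call below is said to hold, it is in this sense.

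**Figure D1:**
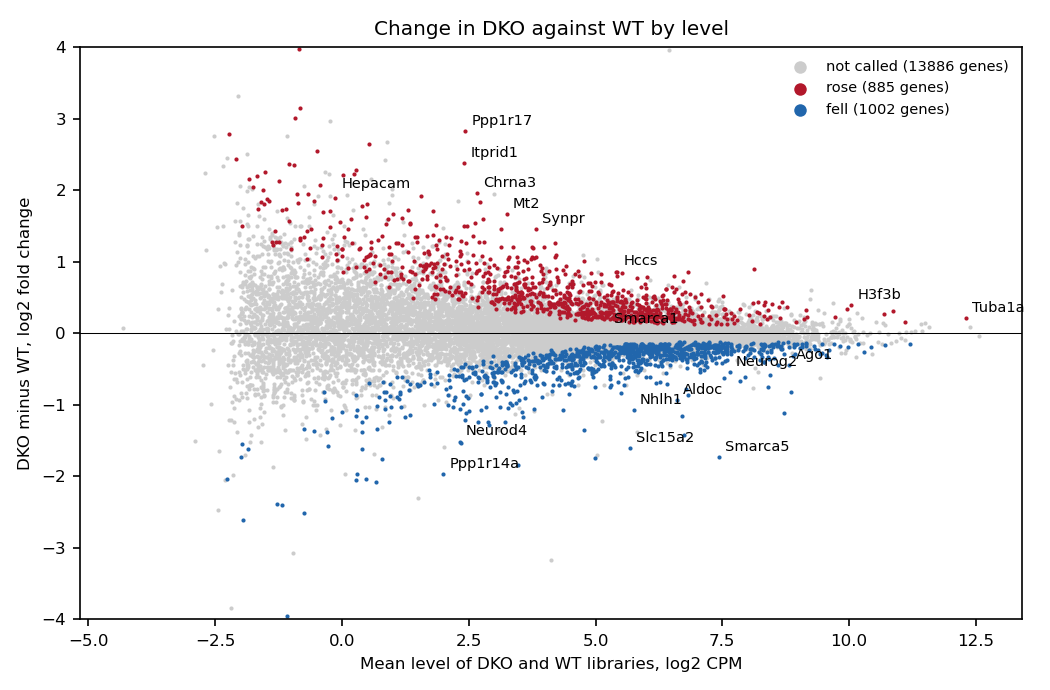
Log2 fold change in DKO against WT (vertical axis) by mean level in log2 CPM (horizontal axis), 1 point per gene tested, with the 885 genes that rose in red and the 1002 that fell in blue. Ppp1r17, Itprid1 and Chrna3 stand highest among the labelled genes, and Ppp1r14a and Smarca5 lowest.

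Among the rises with the smallest p were genes of signalling, metabolism and chromatin reading. Prps2 and Hccs, also among them, are given below with a run on chromosome X, where Smarca1 KO lay above WT too. Plcd4, a phospholipase C that makes inositol trisphosphate (chromosome 1, 74542888 to 74567794), was at 9.67, 10.8 and 10.5 CPM in DKO, compared with 2.97, 2.91 and 2.81 CPM in WT. The Smarca1 KO libraries, at 3.09, 3.21 and 3.21 CPM, lay just above WT, and the rise in DKO was 3.56-fold (log2 fold change 1.83, SE 0.10, edgeR adjusted p = 4.82e-05). Of its 31-base words 32.1% occur in other genes, so its counts are less certain. Zcwpw1, which reads histone methylation and acts in meiosis (chromosome 5, 137787798 to 137822621), was at 19, 18.8 and 18.7 CPM in DKO against 8.12, 7.94 and 8.73 CPM in WT (log2 fold change 1.19, SE 0.079, edgeR adjusted p = 0.000156). Arg2, the mitochondrial arginase (chromosome 12, 79130777 to 79156301), rose from 3.59, 3.57 and 4.31 CPM to 8.9, 9.39 and 9.52 CPM (log2 fold change 1.28, SE 0.12, edgeR adjusted p = 0.000658). In Plcd4, Zcwpw1 and Arg2 the DKO libraries overlapped neither those of WT nor those of Smarca1 KO. Among other genes with the smallest p or the largest rises were the synaptic vesicle gene Synpr (6.43, 8.6 and 7.71 CPM in WT, 20.4, 21.7 and 19.8 CPM in DKO) and the calmodulin regulator gene Pcp4 (log2 fold change 1.07). The transcription factor gene Cebpa (1.36), the microtubule gene Map7 (1.36), the integrin gene Itgb4 (1.52) and the ammonia transporter gene Rhcg (1.49) rose as well. Calls of these genes held without any 1 library.

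Near the largest rises stood an adjacent pair on chromosome 6. Ppp1r17, a phosphatase inhibitor, was at 8.04, 9.71 and 10.4 CPM in DKO against 1.25, 0.971 and 1.76 CPM in WT, and Itprid1, 5′ of it on the same strand, at 5.89, 9.55 and 11.3 CPM against 1.69, 2.01 and 1.44 CPM. Both were low in every Smarca1 KO library, at 1.04 to 1.4 CPM and 2.51 to 3.41 CPM. Chrna3, a subunit of neuronal nicotinic acetylcholine receptors, was at 11, 9.71 and 9.45 CPM in DKO, 2.64, 2.32 and 2.81 CPM in WT and 4.6, 3.07 and 3.83 CPM in Smarca1 KO. Of 9 nicotinic subunit genes tested it was the called one, and the median over the list was 0.31, against 0.008 over all genes, both as log2 fold changes. That rise is 11.1% of the list, against 5.61% over all genes.

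Among the falls with the smallest p were Aldoc, a glycolytic aldolase used as a marker of radial glia and astrocytes (chromosome 11, 78322968 to 78327781), at 66.6, 63.7 and 69.9 CPM in DKO, compared with 121.6, 140.4 and 122.1 CPM in WT (log2 fold change −0.94, SE 0.066, edgeR adjusted p = 0.000196). Its Smarca1 KO values, 119.3, 126.3 and 114.9 CPM, overlapped none of the DKO values. Emid1, an extracellular matrix gene (chromosome 11, 5106265 to 5152257), was at 4.3, 4.6 and 4.2 CPM against 10.2, 11.5 and 10.1 CPM in WT (log2 fold change −1.28, SE 0.095, edgeR adjusted p = 0.000234). Necab3, a calcium-binding protein gene (chromosome 2, 154544399 to 154558890), fell to 44.5% of WT and Shcbp1, a gene of dividing cells (chromosome 8, 4735976 to 4779567), to 39.2%. Smaller but tight falls were those of Ago1, a core protein of microRNA silencing, at 382.3, 389.4 and 373.4 CPM against 514.2, 530.6 and 521.1 CPM in WT, and of the receptor phosphatase gene Ptprf (log2 fold change −0.44), the phospholipase gene Plce1 (−0.72), the ribosome assembly gene Mak16 (−0.76, 33.8% of its words shared) and the histone demethylase gene Kdm3b (−0.52). In Ago1 and Ptprf the Smarca1 KO libraries lay between the other groups, at 433.7 to 458.3 CPM and 369.1 to 372.7 CPM. The calls named here held without any 1 library.

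The largest differences in CPM were in genes of high expression. H3f3b, which encodes the replication-independent histone H3.3, was at 1175.0, 1221.5 and 1171.4 CPM in DKO, compared with 892.3, 904.5 and 934.2 CPM in WT (log2 fold change 0.39, SE 0.039, edgeR adjusted p = 0.00104). Stmn1 and Tuba1a, genes of the neuronal microtubule cytoskeleton, rose by 0.27 and 0.21 on the log2 scale, though 78.6% of the 31-base words of Tuba1a occur in other genes and its counts are uncertain. Hsp90ab1 (−0.15), the pyruvate kinase gene Pkm (−0.27) and the RNA-binding protein genes Ddx5 (−0.17) and Hnrnpu (−0.20) fell. Of these, the H3f3b call held without any 1 library, while the others were lost in some such fits, at adjusted p up to 0.125.

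**Figure D2:**
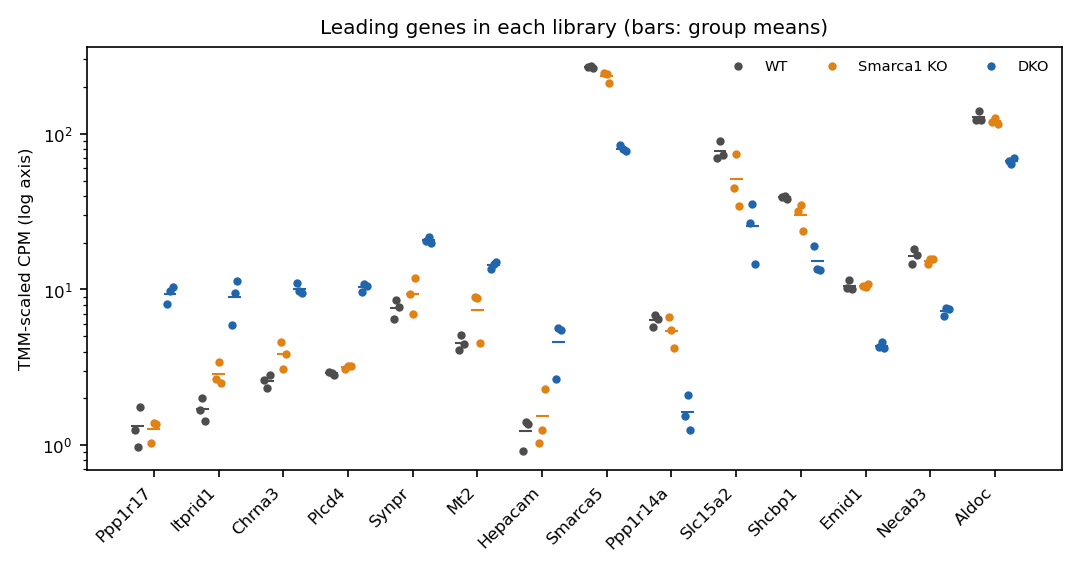
Level in CPM on a log axis in each of the 9 libraries for 14 genes with large or well-supported changes, with bars at group means. DKO libraries stand apart from both other groups in Plcd4, Ppp1r17, Emid1 and Aldoc, while in Mt2 and Slc15a2 the Smarca1 KO libraries spread between WT and DKO.

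The metallothionein genes Mt2 and Mt1, small metal-binding proteins induced by zinc through the factor MTF1, lie next to each other on chromosome 8 and rose together. Their promoters are shown because 2 of the 3 metallothionein promoters in the RefSeq table (GRCm38.p6) hold the core of the metal response element, searched as TGCACNC or TGCGCNC on both strands. The same core is in 21.4% of 32851 promoters of that length, so a match is a description and not a site. The 250 bases before each start are printed 5′ to 3′ on the plus strand, with matches in capitals.
Mt2, chr8:94172368-94172617: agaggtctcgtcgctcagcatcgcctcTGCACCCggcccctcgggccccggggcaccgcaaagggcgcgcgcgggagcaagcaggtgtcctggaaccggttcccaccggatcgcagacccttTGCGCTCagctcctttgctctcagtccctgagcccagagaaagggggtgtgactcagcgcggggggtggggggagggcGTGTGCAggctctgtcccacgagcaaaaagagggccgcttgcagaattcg
Mt1, chr8:94178839-94179088: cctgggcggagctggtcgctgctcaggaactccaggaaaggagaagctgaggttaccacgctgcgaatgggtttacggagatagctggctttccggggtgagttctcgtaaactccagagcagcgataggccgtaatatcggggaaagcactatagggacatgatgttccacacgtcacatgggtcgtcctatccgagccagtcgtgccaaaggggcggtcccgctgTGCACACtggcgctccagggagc
The matches begin 223, 128 and 50 bases before the start of Mt2 and 23 bases before that of Mt1. Mt2 was at 13.6, 14.6 and 14.9 CPM in DKO, compared with 4.07, 5.13 and 4.44 CPM in WT (log2 fold change 1.66, SE 0.22, edgeR adjusted p = 0.00345), and 2 of the Smarca1 KO libraries, at 8.89 and 8.84 CPM, lay between the groups while the other was at 4.55 CPM. Mt1 was at 10.7, 11.9 and 12.5 CPM in DKO, compared with 6.53, 8.18 and 7.75 CPM in WT (0.65, SE 0.12, edgeR adjusted p = 0.0141), a call lost without DKO replicate 3, WT replicate 1 or WT replicate 3 (adjusted p up to 0.0632). Mt3, the brain metallothionein, had 30.2 to 33.6 CPM in DKO, a range that covers all WT values. Slc30a10, an exporter of manganese and zinc, fell from 41.7, 42.1 and 35.4 CPM to 24.9, 21.2 and 24.8 CPM (−0.75, SE 0.085, edgeR adjusted p = 0.00187), and Slc30a1, the zinc exporter that MTF1 also induces, had a log2 fold change of 0.04 (adjusted p = 0.803). Mt2, Mt1 and Slc30a10 were the 3 called among 24 metallothionein and zinc transport genes tested, whose median was 0.04. The rises were 8.33% and the fall 4.17% of that list, against 5.61% and 6.35% over all genes.

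Genes of radial glia and of Notch signalling fell more often than they rose. Of 26 radial glia genes tested 9 fell and 3 rose (34.6% and 11.5%, against 6.35% and 5.61% over all genes), with a median log2 fold change of −0.24. Summed over the list the level was 5128.1, 4947.7 and 4824.9 CPM in DKO, compared with 5612.6, 5657.9 and 5686.2 CPM in WT, with 4697.1 to 5172.9 CPM in Smarca1 KO, a range that covers the DKO values. In bulk tissue, fewer cells of a type and less RNA per cell cannot be told apart. Emx1, which specifies the dorsal telencephalon, was at 57.9, 51.2 and 50.7 CPM in DKO, compared with 80.6, 83.1 and 81.6 CPM in WT (log2 fold change −0.62, SE 0.082, edgeR adjusted p = 0.00335). Lhx2, a selector of cortical identity, was at 298.7, 270.5 and 264.6 CPM against 403.6, 431.3 and 408.2 CPM (−0.58, SE 0.086, edgeR adjusted p = 0.00553). In both genes DKO and WT did not overlap, and both calls held without any 1 library. Smarca1 KO was at 59.4 to 73.8 CPM for Emx1, between DKO and WT. For Lhx2 it was at 267.0 to 337.5 CPM, where replicate 3 lay in the DKO range. Id4, an inhibitor of bHLH factors (−0.75), Gli3, a repressor in hedgehog signalling (−0.42), and Sox9 (−0.31) fell as well. The general progenitor markers Sox2 (−0.19, adjusted p = 0.0591), Nes (−0.22, adjusted p = 0.0722) and Pax6 (−0.24, adjusted p = 0.0811) were not called, and Vim stood at −0.05. The list did not move as 1 block, since the glutamate transporter gene Slc1a3 (0.43), the fatty acid binding gene Fabp7 (0.23) and the matrix gene Tnc (0.79) rose. Tnc was at 63.8, 82.9 and 97.1 CPM in DKO and 43.8 to 50.1 CPM in WT, so its DKO libraries spread more. Without 1 library the falls in the list numbered 3 (DKO replicate 3, WT replicate 1 or WT replicate 3) to 16 (Smarca1 KO replicate 3).

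In the Notch pathway 12 of 27 genes (44.4%) fell and none rose, either in edgeR, also at an unadjusted p under 0.05, or in DESeq2, with a median log2 fold change of −0.21. The receptors Notch3 (−0.49), Notch2 (−0.32) and Notch1 (−0.24), the ligands Dll1 (−0.28) and Dll3 (−0.35), the fringe enzyme gene Mfng (−0.28), the nuclear effectors Rbpj (−0.21) and Maml1 (−0.27) and the target genes Hes1 (−0.53), Hes5 (−0.49), Hey1 (−0.53) and Nrarp (−0.32) were the 12. Hes1, Hes5 and Notch1 are also among the radial glia falls, and Dll1, Dll3 and Mfng among the intermediate progenitor falls below. The counts of these lists are thus not separate. Over all genes 6.35% fell and 5.61% rose. Hes1, a repressor of proneural genes, was at 29.1, 25.6 and 23.8 CPM in DKO, compared with 36.5, 38.3 and 38.8 CPM in WT, without overlap. Hes5 was at 50.7, 52.3 and 46.5 CPM in DKO, 65.8, 69.1 and 74.5 CPM in WT and 64.2, 60.8 and 42.0 CPM in Smarca1 KO, where replicate 3 was below the lowest DKO library. The Hes5 promoter is shown because the core GTGGGAA, which the Notch effector RBPJ binds, was found there on both strands, with matches in capitals beginning 226 and 83 bases before the start.
Hes5, chr4:154960673-154960922: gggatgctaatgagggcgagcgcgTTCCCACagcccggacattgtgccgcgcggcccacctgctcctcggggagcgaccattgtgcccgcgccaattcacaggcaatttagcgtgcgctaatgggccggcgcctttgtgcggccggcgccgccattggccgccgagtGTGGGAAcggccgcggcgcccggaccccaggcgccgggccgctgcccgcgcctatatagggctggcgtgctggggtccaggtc
That core is in 5.42% of 32851 RefSeq promoters (GRCm38.p6) and in 3 of the 27 promoters matched to 21 genes of the list, those of Hes5, Hey2 and Lfng. Jag1, a ligand of the other class, stood at −0.09 (adjusted p = 0.525). Notch3 was the member of the list whose call held without any 1 library. Adjusted p of Notch1, Notch2, Hes1, Maml1 and Nrarp reached 0.0743, 0.0756, 0.0625, 0.0914 and 0.102 in such fits. The falls numbered 1 without DKO replicate 3, WT replicate 1 or WT replicate 2, 2 and 3 without WT replicate 3 and DKO replicate 2, and 16 without Smarca1 KO replicate 3. The Smarca1 KO libraries were low in several of these genes as well, with Notch1 at 255.3 to 287.7 CPM, DKO at 276.4 to 295.5 CPM and WT at 332.3 to 343.8 CPM.

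Among 17 genes of proneural factors and intermediate progenitors there were 9 falls (52.9%) and no rise, also at an unadjusted p under 0.05 or in DESeq2, with a median log2 fold change of −0.28. All 17 values were below 0. Over all genes 6.35% fell and 5.61% rose. The summed level was 1469.7 to 1489.5 CPM in DKO, 1749.5 to 1816.3 CPM in WT and 1499.6 to 1797.5 CPM in Smarca1 KO. The sizes were graded. Nhlh1, a bHLH factor of newborn neurons (chromosome 1, 172052292 to 172057573), fell from 69, 75.4 and 74.8 CPM to 36.1, 35.2 and 32.3 CPM (−1.08, SE 0.11, edgeR adjusted p = 0.00086). Neurog1 was at 7.6, 7.25 and 7.56 CPM in DKO, compared with 16.3, 16.1 and 15.9 CPM in WT, or 46.4%, whereas its more abundant relative Neurog2, at 173.0, 157.3 and 156.2 CPM in DKO against 234.9, 242.7 and 235.3 CPM, fell by 0.55 on the log2 scale. Neurod4, which acts downstream of the neurogenins, held 34.8% of its WT level. In each of these 4 genes the DKO libraries lay below all WT libraries, and the calls held without any 1 library. In Smarca1 KO Nhlh1 was at 48.1 to 67.2 CPM and Neurog1 at 9.51 to 14.3 CPM, between DKO and WT. Neurog2 was at 167.5 to 223.4 CPM in Smarca1 KO, where replicate 3 lay in the DKO range. Neurod4, at 6.71 to 8.56 CPM in Smarca1 KO, overlapped WT. Eomes, the defining factor of intermediate progenitors, was at 208.8, 213.4 and 226.0 CPM in DKO and 238.3 to 249.8 CPM in WT (−0.18, SE 0.064, adjusted p = 0.1), and so was not called. Hes6 (−0.17) and the antiproliferative gene Btg2 (−0.23) were not called either. Without 1 library the falls numbered 4 (WT replicate 2 or 3) to 11 (Smarca1 KO replicate 3).

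**Figure D3:**
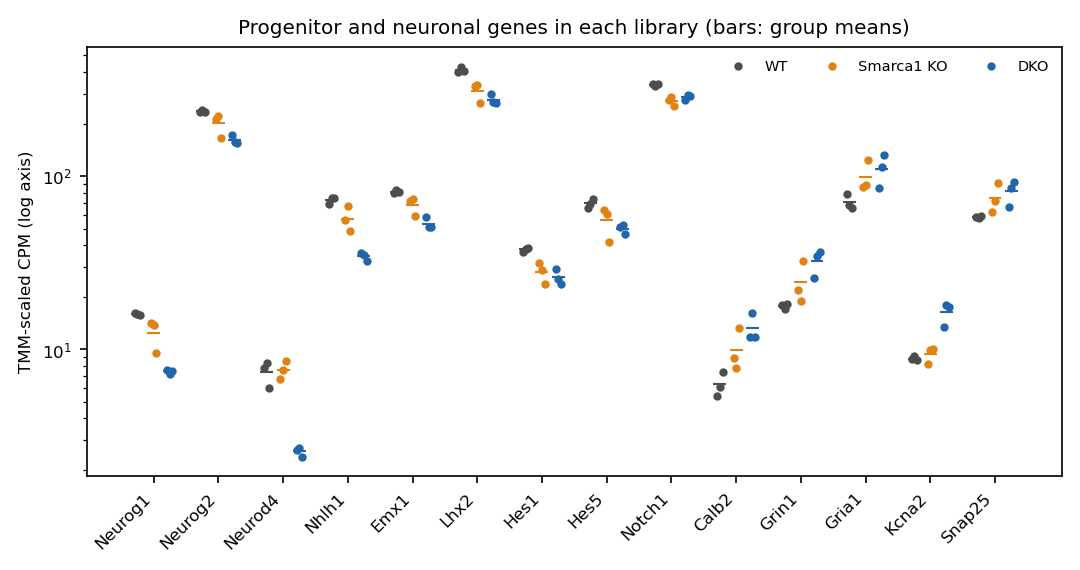
TMM-scaled CPM on a log axis in each of the 9 libraries for 14 progenitor and neuronal genes, with 1 point per library, colours for the 3 genotypes and bars at group means. Neurod4, Nhlh1 and Neurog1 are lowest in DKO without overlap, while in Grin1, Gria1 and Snap25 DKO replicates and Smarca1 KO replicates spread widely.

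Genes of projection neurons, the glutamatergic output neurons of the cortex, moved both ways: of 28 tested 3 rose and 3 fell (10.7% each), with a median of 0.11. Over all genes 5.61% rose and 6.35% fell. Fezf2, which directs subcerebral projection identity, was at 73.9, 74.1 and 76.7 CPM in DKO, 95.7, 112.9 and 97.7 CPM in WT and 98.3 to 113.9 CPM in Smarca1 KO (log2 fold change −0.45, SE 0.072, edgeR adjusted p = 0.00695). Slc17a7, a vesicular glutamate transporter, fell (−0.55), as did the semaphorin receptor gene Nrp1 (−0.56, with 53.9 to 75.7 CPM in Smarca1 KO and 34.5 to 37.1 CPM in DKO). Lmo4 (0.32), Lmo3 (0.55) and Crym (0.98) rose. The layer markers Tbr1 (−0.08) and Bcl11b (−0.04) were not called and their groups overlapped. Calls of Fezf2, Lmo3 and Lmo4 held, while those of Slc17a7, Nrp1 and Crym were lost without WT replicate 1 and in other such fits, at adjusted p up to 0.0711. Without DKO replicate 1 or Smarca1 KO replicate 3 the rises numbered 8. Doublecortin, Dcx, which marks migrating young neurons, was at 1116.6, 1277.2 and 1342.7 CPM in DKO and 973.5 to 1068.6 CPM in WT (0.28, adjusted p = 0.0708), and the neuronal tubulin gene Tubb3 stood at 0.21 (adjusted p = 0.0674).

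Of 13 Cajal-Retzius genes, marking the reelin neurons of the cortical surface, 3 rose and 1 fell, with a median of 0.39. These are 23.1% and 7.69% of the list, against 5.61% and 6.35% over all genes. Calb2, the calcium buffer calretinin, was at 11.8, 16.2 and 11.8 CPM in DKO, 5.38, 6.07 and 7.42 CPM in WT and 7.78 to 13.3 CPM in Smarca1 KO. Trp73 (0.39) and Ndnf (0.65) rose, Nhlh2 fell (−0.25), and Reln itself was at 302.5, 327.8 and 314.2 CPM against 257.7 to 286.1 CPM in WT (0.23, adjusted p = 0.146). Among 27 genes of ventral interneurons, GABAergic cells born outside the cortex, 8 rose (29.6%) and none fell, with a median of 0.28. Sst was at 46.5, 60.3 and 72.8 CPM in DKO and 35.7 to 44.4 CPM in WT, and Slc32a1, the vesicular GABA transporter, at 49.5, 53.3 and 53.4 CPM against 36.8 to 44.6 CPM. Six3 (0.44), Maf (0.48), Npy (0.65), Dlx1 (0.30), Dlx5 (0.30) and Sp8 (0.28) were the others, while Gad1 (0.39, adjusted p = 0.0591) and Lhx6 (0.36, adjusted p = 0.0727) were not called. The Six3 call held without any 1 library. The rises among the interneuron genes numbered 1 (WT replicate 2) to 10 (DKO replicate 1 or Smarca1 KO replicate 3), and those of Cajal-Retzius genes 0 (DKO replicate 2, WT replicate 1 or WT replicate 2) to 6 (Smarca1 KO replicate 2).

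Of 51 synaptic vesicle and receptor genes 9 rose and 1 fell, and 46 had a log2 fold change above 0, with a median of 0.30. The rises and the fall were 17.6% and 1.96% of the list, against 5.61% and 6.35% over all genes. Grin1, the obligatory subunit of NMDA receptors, was at 25.9, 34.7 and 36.5 CPM in DKO, compared with 18, 17.1 and 18.2 CPM in WT. In Smarca1 KO the values, 22.1, 19.1 and 32.3 CPM, lay above WT and replicate 3 reached into the DKO range. The glutamate receptor genes Gria1 (0.64) and Grin2b (0.73), the GABA receptor gene Gabra5 (0.86), the release genes Rims1 (0.87), Syn1 (0.51), Snap25 (0.50) and Stx1a (0.43) and the adhesion gene Nrxn3 (0.44) rose too. The summed level was 4287.2, 5215.3 and 5302.9 CPM in DKO replicates 1 to 3 against 4117.8 to 4332.6 CPM in WT, so DKO replicate 1 lay within the WT range. Without DKO replicate 1 there were 23 rises, without Smarca1 KO replicate 3 there were 24, and without DKO replicate 2 or 3 or any 1 WT replicate there were 0. DKO replicate 1 was also the library with the highest meningeal level in its group, and the part of that in the synaptic values was not tested.

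Of 113 potassium, sodium and calcium channel genes 12 rose and 1 fell, with a median of 0.33. These are 10.6% and 0.885% of the list, against 5.61% and 6.35% over all genes. Kcnk2, a leak channel of neurons, was at 34.9, 37.6 and 33.6 CPM in DKO, 25.4, 21.1 and 23.8 CPM in WT and 30.7, 27.9 and 35.5 CPM in Smarca1 KO (log2 fold change 0.59, SE 0.097, edgeR adjusted p = 0.00784). The voltage-gated potassium channel genes Kcna2 (0.89) and Kcnh4 (0.72) and the low-voltage calcium channel gene Cacna1i (0.87) rose, and Kcnip3, a calcium-binding channel modulator, fell (−0.45). Calls of Kcna2 and Kcnk2 held without any 1 library. The rises numbered 2 without WT replicate 2 and 29 without DKO replicate 1. In a list of 25 solute carriers of neurotransmitters, urea and peptides 8 rose (32%) and 2 fell (8%). Slc14a1, a urea transporter, was at 2.84, 2.98 and 3.4 CPM in DKO, compared with 0.999, 0.936 and 0.98 CPM in WT, and the GABA transporter gene Slc6a11 at 8.07, 12.4 and 11.9 CPM against 5.53 to 6.03 CPM. The peptide transporter gene Slc15a2 fell unevenly, with 26.6, 35.6 and 14.5 CPM in DKO, compared with 69.9, 89.1 and 72.8 CPM in WT. Its call was lost without any 1 WT replicate (adjusted p up to 0.0672), and the rises in the list numbered 3 without DKO replicate 3, WT replicate 1 or WT replicate 2.

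Among 69 axon guidance genes 9 fell (13%) and 3 rose (4.35%), against 6.35% and 5.61% over all genes, and their median was 0.02. Sema5a, a transmembrane semaphorin, was at 113.4, 109.5 and 105.1 CPM in DKO, compared with 165.4, 153.2 and 158.1 CPM in WT (log2 fold change −0.54, SE 0.08, edgeR adjusted p = 0.00536). The ephrins Efna4 (−0.47), Efnb1 (−0.31) and Efna2 (−0.27) and the plexin gene Plxnb1 (−0.19) fell. Epha10 rose from 0.936 to 0.948 CPM in WT to 1.38, 3.24 and 2.4 CPM in DKO. The call of Sema5a held. The falls numbered 1 without WT replicate 1, 3 without DKO replicate 3 or WT replicate 3 and 13 without Smarca1 KO replicate 3, and the rises 0 without DKO replicate 2 or 3 or any 1 WT replicate and 13 without Smarca1 KO replicate 3.

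Of 26 glial lineage genes tested 4 rose and 3 fell, with a median of 0.34 and 19 above 0. The calls were 15.4% and 11.5% of the list, against 5.61% and 6.35% over all genes. DESeq2 called 10 rises and 3 falls. The astrocyte adhesion gene Hepacam was at 2.67, 5.67 and 5.51 CPM in DKO, compared with 0.922, 1.42 and 1.37 CPM in WT, with DKO replicate 1 nearest to WT, and the glutamate transporter gene Slc1a2 at 108.9, 122.7 and 114.2 CPM against 72.9 to 80.7 CPM. Cspg5 (0.49) rose, and the fibroblast growth factor receptor gene Fgfr3 (−0.63), Ttyh1 (−0.67) and the gliogenic factor gene Nfia (−0.38) fell. Ttyh1 was at 181.8, 177.5 and 172.4 CPM in DKO, compared with 269.9, 291.7 and 283.6 CPM in WT (SE 0.078, edgeR adjusted p = 0.00211), without overlap, and its call held without any 1 library. The oligodendrocyte factor Olig1 was at 5.32 to 8.87 CPM in DKO and 3.5 to 3.76 CPM in WT (1.01, adjusted p = 0.054), and Olig2 at 27.1 to 30.1 CPM against 21.4 to 29.4 CPM. Rises in the list numbered 1 without DKO replicate 3 or any 1 WT replicate and 7 without DKO replicate 1, Smarca1 KO replicate 1 or Smarca1 KO replicate 2, and the Hepacam and Slc1a2 calls were lost at adjusted p up to 0.0781.

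Of 21 genes tested of microglia, the immune cells of the brain, 5 rose (23.8%) and none fell, 20 had a log2 fold change above 0, and the median was 0.44. C1qa, a complement subunit, was at 7.55, 5.37 and 7.77 CPM in DKO, compared with 2.94, 3.19 and 3.24 CPM in WT, with 3.38 to 4.68 CPM in Smarca1 KO (log2 fold change 1.15, SE 0.18, edgeR adjusted p = 0.00636). C1qc (1.08), the fractalkine receptor gene Cx3cr1 (0.77), Trem2 (0.92) and Ly86 (1.60) were the others. Summed over the list the level was 146.5, 112.1 and 138.0 CPM in DKO, compared with 96.8, 95.7 and 95.3 CPM in WT, without overlap. Csf1r (0.28), P2ry12 (0.59), Tmem119 (0.20) and Aif1 (0.45) were not called. Calls of C1qa, C1qc and Cx3cr1 held without any 1 library, and the rises in the list numbered 3 (DKO replicate 3 or WT replicate 1) to 6 (Smarca1 KO replicate 1 or 3). EdgeR called none of 20 endothelial and mural genes, 18 meningeal genes and 9 diencephalon genes. At an unadjusted p under 0.05 there were 1 fall, 1 rise with 1 fall, and none, and DESeq2 called 0, 1 and 0. In hem and choroid plexus the transthyretin gene Ttr was the called one of 23, a rise in 4.35% of the list, against 5.61% over all genes. Ttr was at 448.7, 229.5 and 408.2 CPM in DKO, compared with 157.8, 195.4 and 229.3 CPM in WT. DKO replicate 2 exceeded the highest WT library by little. That call was lost without DKO replicate 1 or 3 or any 1 WT replicate (adjusted p up to 0.133), and without DKO replicate 2 there were 5 rises in the list. Of 13 blood genes Hba-a1 fell (−0.83, 75.5% of its words shared with other genes). That is 7.69% of the list, against 6.35% over all genes.

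In a list of class I MHC genes, which present peptides to T cells, and of genes for their peptide supply and regulation, 8 of 17 rose (47.1%) and none fell, with a median of 0.42, and 8 of the 17 share at least 20% of their 31-base words with other genes (26.9% in H2-D1). H2-D1 was at 49.5, 50.4 and 50.5 CPM in DKO, 34.4, 36.5 and 35.8 CPM in WT and 26.8, 22.1 and 26.4 CPM in Smarca1 KO, so Smarca1 KO lay on the far side of WT. H2-K1 showed the same order, with 25.2 to 28.2 CPM in DKO, 18.1 to 20.9 CPM in WT and 11.2 to 13.4 CPM in Smarca1 KO. H2-T23 did not: it was at 1.71, 2.07 and 2.11 CPM in DKO, 1.04 to 1.47 CPM in WT and 4.23 to 4.63 CPM in Smarca1 KO. With H2-Q10 (0.90, 30.3% shared) these were the class I genes called, and the other rises were those of the peptide loading genes Tap1 (0.87), Tap2 (0.92) and Tapbp (0.22) and the class I regulator Nlrc5 (1.19, 0.719 to 1.07 CPM in DKO). H2-D1 kept its call without any 1 library. The list had 1 rise without DKO replicate 3, WT replicate 1 or WT replicate 2, and 9 without Smarca1 KO replicate 2. Of 17 interferon response genes Ifit2 rose (0.70), from 10.7, 11.7 and 11.4 CPM to 16.9, 19.2 and 19.1 CPM. That is 5.88% of the list, against 5.61% over all genes. The 5 called microglial genes were high in the same libraries, and their part in the MHC values was not tested.

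Of 13 ISWI subunit genes 5 fell (38.5%, against 6.35% over all genes) and none rose. Beside Smarca5 these were the BAZ-domain partners Baz1b (−0.22) and Baz2b (−0.18), Cecr2, a partner in neural tissue (−0.42), and the histone-binding subunit gene Rsf1 (−0.17). Cecr2 was at 51.3, 52.1 and 47.3 CPM in DKO, compared with 67.9, 68 and 65.7 CPM in WT, without overlap. Baz1b was at 363.4 to 392.2 CPM in DKO, 424.5 to 451.0 CPM in WT and 355.3 to 399.7 CPM in Smarca1 KO. Bptf, the large subunit of NURF, stood at −0.09 (adjusted p = 0.177). Of 31 subunits of other remodellers 6 fell (19.4%). Chd4, the ATPase of NuRD, was at 675.6, 660.8 and 669.3 CPM in DKO, 836.6, 833.0 and 809.2 CPM in WT and 704.8 to 748.0 CPM in Smarca1 KO (log2 fold change −0.31, SE 0.036, edgeR adjusted p = 0.00211). The SWI/SNF subunit genes Arid2 (−0.30) and Smarcc1 (−0.26), together with Chd2 (−0.20), Atrx (−0.17) and Smarcad1 (−0.15), also fell. Smarcc1 was at 309.7 to 325.0 CPM in DKO, 370.8 to 387.7 CPM in WT and 309.1 to 333.4 CPM in Smarca1 KO. There Smarca1 KO covered the DKO values. Calls of Chd4, Arid2 and Smarcc1 held without any 1 library, and the falls in that list numbered 3 (DKO replicate 2 or 3, WT replicate 1 or 2) to 10 (Smarca1 KO replicate 3). Without 1 library the ISWI falls numbered 1 (DKO replicate 3, WT replicate 1 or WT replicate 2) to 6, and Smarca5 kept its call in each fit.

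Among 40 Polycomb and histone methylation genes 11 fell (27.5%) and none rose, with a median of −0.10. Kdm3b, a demethylase of histone H3 lysine 9, was at 110.1, 121.1 and 114.7 CPM in DKO, compared with 167.3, 168.8 and 161.1 CPM in WT, with 147.0 to 158.4 CPM in Smarca1 KO (log2 fold change −0.52, SE 0.047, edgeR adjusted p = 0.000627). Bmi1, a Polycomb ring protein, was at 103.2, 107.6 and 108.1 CPM in DKO, compared with 131.3, 133.2 and 136.1 CPM in WT, while Smarca1 KO at 134.0 to 149.9 CPM lay with WT. Suz12 (−0.34), Kmt2c (−0.26), Kdm5a (−0.21) and Kdm2a (−0.18) fell, and Ezh2 stood at −0.13 (adjusted p = 0.107). Calls of Kdm3b and Bmi1 held without any 1 library, and the falls in the list numbered 2 without WT replicate 1 and 14 without Smarca1 KO replicate 3. Of 24 heterochromatin and DNA methylation genes the corepressor gene Trim28 (−0.23), the H3 lysine 9 methyltransferase gene Setdb1 (−0.14), its partner Atf7ip (−0.20) and the DNA methyltransferase gene Dnmt3a (−0.19) fell. These are 16.7% of the list, against 6.35% over all genes. Trim28 was at 583.5, 591.4 and 594.2 CPM in DKO, compared with 678.1, 685.4 and 713.4 CPM in WT, and Smarca1 KO at 553.8 to 616.4 CPM lay with DKO. None of these 4 calls was left without DKO replicate 3 or any 1 WT replicate, and 12 members fell without Smarca1 KO replicate 3. Of 15 CTCF and cohesin genes Pds5a fell (−0.24), which is 6.67% of the list, against 6.35% over all genes. Ctcf stood at −0.11 (edgeR adjusted p = 0.0996). Of 54 histone genes, many of which share sequence or lack poly(A) tails, 4 rose and 1 fell. These are 7.41% and 1.85% of the list, against 5.61% and 6.35% over all genes. The linker histone genes moved both ways: Hist1h1c (1.05) and H1f0 (0.32) rose and H1fx (−0.39) fell.

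Zinc finger genes named Zfp, many of them KRAB repressors of transposable elements that lie in clusters of copies, were tested as 1 list. Of 372 tested 67 fell (18%) and 6 rose (1.61%), against 6.35% and 5.61% over all genes. In 270 the log2 fold change was below 0. Copies can trade reads: 73 of the 372 share at least 20% of their 31-base words with other genes, and 25 of these 73 fell, against 42 of the 299 below that share. Among the less shared, Zfp507 was at 51.7, 52.6 and 46.9 CPM in DKO, compared with 80.4, 77.3 and 73.2 CPM in WT (log2 fold change −0.61, SE 0.057, edgeR adjusted p = 0.000705). Zfp239 was at 17.8, 17.3 and 18.6 CPM against 30.8, 31.6 and 27.7 CPM, and Zfp111 at 16.7, 15.2 and 15.7 CPM against 26.4, 26.2 and 25.5 CPM. Smarca1 KO stood at 26.7 to 31.5 CPM for Zfp239 and 20.9 to 25.5 CPM for Zfp111, above all DKO libraries. Larger falls were those of Zfp976 (−1.54, 35.0% shared), Zfp970 (−1.24, 67.9% shared) and Zfp992 (−1.24, 48.4% shared). On chromosome 7, which holds 90 of the tested members, 16 fell and 1 rose, and on chromosome 17, 10 of 46 fell. Without 1 library the falls numbered 24 (WT replicate 1) to 87 (Smarca1 KO replicate 3).

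Called genes also lay side by side, a pattern chosen after the values were seen. There were 22 runs of 3 or more consecutive tested genes called the same way, 15 of falls with 53 genes and 7 of rises, and 11 of the 15 falling runs held a gene named Zfp, Zscan or Zkscan. On chromosome 7, from 42473386 to 42692742, Zfp141, Zfp977, Zfp976 and Zfp975 fell, with log2 fold changes of −1.54 to −0.72. On chromosome 17, from 21707741 to 21909926, Zfp760, Zfp229, Zfp820 and Zfp995 fell, and on chromosome 13, from 21179445 to 21453730, so did Trim27, Zscan12, Zkscan3, Pgbd1 and Zscan26. No chance level was computed for these runs.

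The longest run was of rises, 7 consecutive tested genes on chromosome X (167304929 to 169370003, 2.07 Mb): Tlr7, Prps2, Frmpd4, Msl3, Arhgap6, Hccs and the pseudogene BC022960. Hccs, the cytochrome c heme lyase, was at 56.7, 54.1 and 55.8 CPM in DKO, 29.2, 30.8 and 31.6 CPM in WT and 58.7, 59.7 and 51.6 CPM in Smarca1 KO, a rise of 1.82-fold (log2 fold change 0.86, SE 0.062, edgeR adjusted p = 0.000212), with 25.1% of its words shared. Prps2, which makes the ribose substrate of nucleotide synthesis, was at 38, 39.9 and 37.6 CPM in DKO, 21.9, 21 and 21.7 CPM in WT and 35.9, 34.3 and 31.7 CPM in Smarca1 KO, and Msl3, a chromatin protein that binds methylated histone H4, at 50.7 to 57.3, 29.2 to 33 and 50.3 to 62.6 CPM. In all 7 genes the DKO and Smarca1 KO libraries lay above every WT library. The Tlr7 and Arhgap6 calls were lost without WT replicate 1 and in other such fits (adjusted p up to 0.059 and 0.138), and the other 5 held. The ratio of group means was lowest in Msl3 (1.74) and highest in Frmpd4 (3.29). Hccs and Arhgap6 overlap on opposite strands, and their reads cannot be told apart if the counting ignored strand. On either side, Tmsb4x (0.13, adjusted p = 0.127) and Mid1 (0.20, adjusted p = 0.446) were not called. Smarca1 lies far from the run on the same chromosome. Of 553 chromosome X genes tested 48 rose (8.68%, against 5.61% over all).

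**Figure D4:**
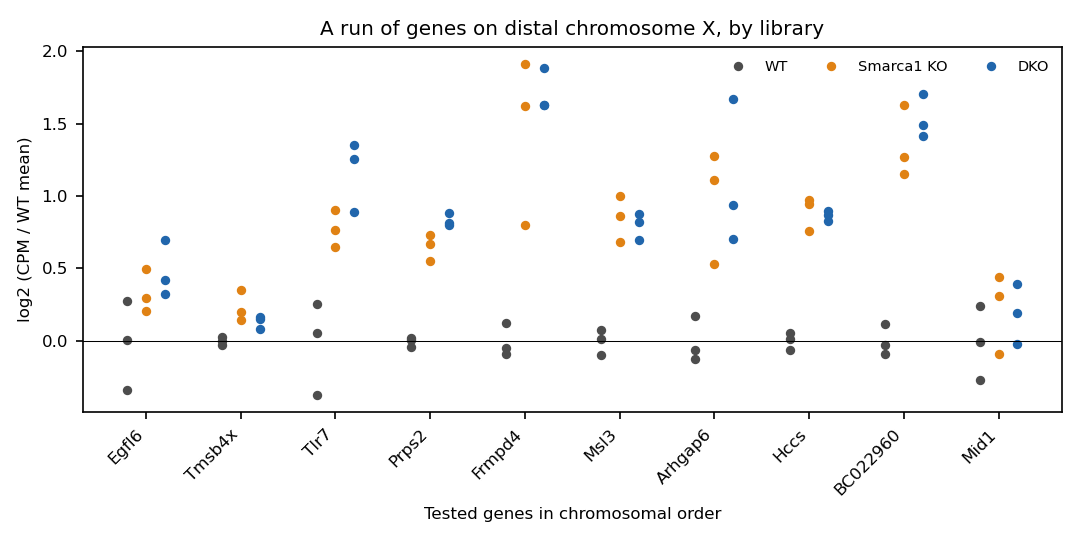
Log2 ratio of CPM to the WT mean (vertical axis) in each of the 9 libraries for 10 tested genes in their order on chromosome X. In the 7 genes from Tlr7 to BC022960 every DKO and Smarca1 KO library lies above every WT library, while in Mid1 the groups overlap.

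Clustered protocadherins, adhesion molecules whose promoters are chosen at random in single neurons, were counted by cluster, and differences between clusters were not tested. Of 21 beta genes 5 fell and none rose, with a median of −0.53. In the gamma cluster 4 of 22 rose and 4 fell, and in the alpha cluster 2 of 14 rose. Over the 3 clusters rises were 10.5% and falls 15.8%, against 5.61% and 6.35% over all genes. Pcdhgc4, a C-type gamma isoform, was at 54.2, 60.6 and 61.1 CPM in DKO, 29.4, 29.6 and 39.1 CPM in WT and 50.6 to 63 CPM in Smarca1 KO, and Pcdhac2, a C-type alpha isoform, at 34.1, 39.2 and 38.7 CPM against 23.2 to 24.1 CPM in WT. Pcdhga7 rose (0.80) while Pcdhgb5 (−0.73) and Pcdhgb8 (−0.81) fell. Pcdhb19 was at 3.72 to 3.94 CPM in DKO, 5.16 to 5.86 CPM in WT and 8.5 to 9.4 CPM in Smarca1 KO, so the WT libraries lay between the others. Pcdhb19 was no longer called in 5 of the 9 fits without 1 library, those leaving out a WT replicate or DKO replicate 2 or 3 (adjusted p up to 0.0787). Of the 57 tested, 37 share at least 20% of their words with other genes (48.4% in Pcdhac2, 40.4% in Pcdhga7), which makes the split between isoforms uncertain. Without 1 library the falls numbered 1 (WT replicate 3) to 13 (Smarca1 KO replicate 3), and the calls of Pcdhgc4, Pcdhga7 and Pcdhgb5 held.

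Of 34 imprinted genes, expressed from 1 parental allele, 5 rose and 2 fell (14.7% and 5.88%, against 5.61% and 6.35% over all genes). Nnat, a membrane protein gene of neurons, was at 2086.8, 2164.0 and 1966.9 CPM in DKO, 1709.1, 1602.0 and 1703.3 CPM in WT and 1719.1 to 2227.3 CPM in Smarca1 KO (log2 fold change 0.31). Nap1l5 (0.91), the thyroid hormone deiodinase gene Dio3 (1.03), Zrsr1 (0.29) and Ndn (0.28) rose, and the growth regulator Plagl1 (−0.35) and the lysosomal receptor gene Igf2r (−0.27) fell. Of these, none kept its call without WT replicate 1, whereas 2 to 7 rises were seen without DKO replicate 1 or a Smarca1 KO replicate.

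Of 32 Wnt genes 6 fell (18.8%, against 6.35% over all genes) and none rose. Tcf7l1, a repressing TCF factor, was at 58.4, 59 and 57.5 CPM in WT, 35.5, 33.5 and 28.7 CPM in DKO and 27.4 to 42.9 CPM in Smarca1 KO. The other falls were those of the feedback genes Nkd1 (−0.39) and Znrf3 (−0.33), the secreted inhibitor gene Sfrp1 (−0.41), the receptor gene Fzd8 (−0.37) and the ligand gene Wnt7b (−0.35). In Smarca1 KO Nkd1 was at 44.9 to 54.8 CPM and Sfrp1 at 235.7 to 310.7 CPM, ranges that cover the DKO values. Of 25 genes of FGF and ERK feedback, with a median of 0.13 and 15 above 0, 4 fell (8 rises and 5 falls at an unadjusted p under 0.05) and Dusp4, an ERK phosphatase, rose from 116.9, 104.9 and 108.4 CPM to 160.0, 171.2 and 151.8 CPM (log2 fold change 0.55, SE 0.078, edgeR adjusted p = 0.00429). The falls were 16% and the rise 4% of that list, against 6.35% and 5.61% over all genes. Of 25 genes of BMP, TGF-beta and hedgehog responses Gli2 fell (−0.36), which is 4% of the list, against 6.35% over all genes. Immediate early genes gave 2 falls, Jun (−0.38, 95.6 to 97.1 CPM in DKO and 119.8 to 129.7 CPM in WT) and Ier2 (−0.42), and 1 rise, Ier3 (0.64), in 22 tested. These are 9.09% and 4.55% of the list, against 6.35% and 5.61% over all genes. At an unadjusted p under 0.05 there were 4 falls and 5 rises. Calls of Tcf7l1, Dusp4 and Jun held without any 1 library. The Wnt falls numbered 1 without DKO replicate 3 or WT replicate 2, and the FGF falls 0 without DKO replicate 2 or 3 or WT replicate 2 or 3.

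Targets of p53, which halts the cell cycle or triggers death after stress, rose in 8 of 36 cases (22.2%) and edgeR called no fall, while the list's median was 0.07. Over all genes 5.61% rose and 6.35% fell. At an unadjusted p under 0.05 there were 14 rises and 3 falls, and DESeq2 called 10 rises and 2 falls. Cdkn1a, the cell cycle inhibitor p21, was at 21.4, 21.6 and 21.6 CPM in DKO, 13.8, 13.6 and 15.1 CPM in WT and 11.4 to 16.5 CPM in Smarca1 KO (log2 fold change 0.60, SE 0.12, edgeR adjusted p = 0.014). Sesn2, a stress inhibitor of mTORC1, was at 16.2, 16.1 and 18.5 CPM against 9.3, 9.74 and 10.4 CPM in WT. DKO and WT did not overlap in either gene. Perp (1.10), Ddit4l (0.90), the death gene Bbc3, also known as Puma (0.68), the repair gene Ddb2 (0.50), Ccng1 (0.41) and Rrm2b (0.39) rose as well. Mdm2, a p53 target and inhibitor, stood at −0.09 (adjusted p = 0.101) and Trp53 itself at −0.20 (adjusted p = 0.0545). In the Bcl2 and caspase list 4 of 32 rose (12.5%), all of them death-promoting members: Bbc3, Hrk (0.80), Bid (0.42) and Bok (0.28). That list had 8 rises and 5 falls at an unadjusted p under 0.05, and 5 rises and 1 fall in DESeq2. The p53 rises numbered 0 without WT replicate 1 or 2, 3 without DKO replicate 3 or WT replicate 3 and 9 without any 1 Smarca1 KO replicate. Adjusted p of Cdkn1a and Sesn2 reached 0.0632 and 0.0589. Rises in the Bcl2 and caspase list numbered 0 without DKO replicate 3, WT replicate 1 or WT replicate 3, and 1 without DKO replicate 2 or WT replicate 2.

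Cell cycle genes were low in most cases but seldom called. Of 43 G1/S and replication genes 41 had a log2 fold change below 0 and 3 fell, Pold1 (−0.38), Tyms (−0.38) and Rfc3 (−0.20). The called falls were 6.98% of this list and 2.7% of the G2/M list, against 6.35% over all genes. Of 37 G2/M genes 36 were below 0 and the cyclin gene Ccnb2 fell (−0.68, 34.8, 32.9 and 32 CPM in DKO, 52.1, 51.5 and 56.6 CPM in WT), a call that held without any 1 library. Mki67 (−0.15, adjusted p = 0.299) and Top2a (−0.21, adjusted p = 0.18) were not called. Summed over the G2/M list the level was 4529.3, 3985.0 and 3910.2 CPM in DKO and 4548.5 to 4654.2 CPM in WT. DKO replicate 1 thus lay close to WT. The G1/S sum was 3874.7 to 4640.2 CPM in DKO, 4849.2 to 4967.7 CPM in WT and 3411.5 to 4453.3 CPM in Smarca1 KO. For G2/M the Smarca1 KO libraries were at 3192.2 to 4314.1 CPM, so they too lay below WT in both lists. Without Smarca1 KO replicate 3, which had the lowest G2/M sum at 3192.2 CPM, 17 G1/S and 10 G2/M genes fell. Of 43 DNA repair genes 5 fell, Atm (−0.41), Brca2 (−0.42), Fanca (−0.46), Rad50 (−0.25) and Parp1 (−0.24), and 38 were below 0. The falls were 11.6% of the list, against 6.35% over all genes. The repair genes summed to 2648.7 to 2793.3 CPM in DKO, 2998.9 to 3053.9 CPM in WT and 2495.8 to 2860.6 CPM in Smarca1 KO. The last range covers the DKO values. The repair falls numbered 0 without WT replicate 1 and 18 without Smarca1 KO replicate 3.

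**Figure D5:**
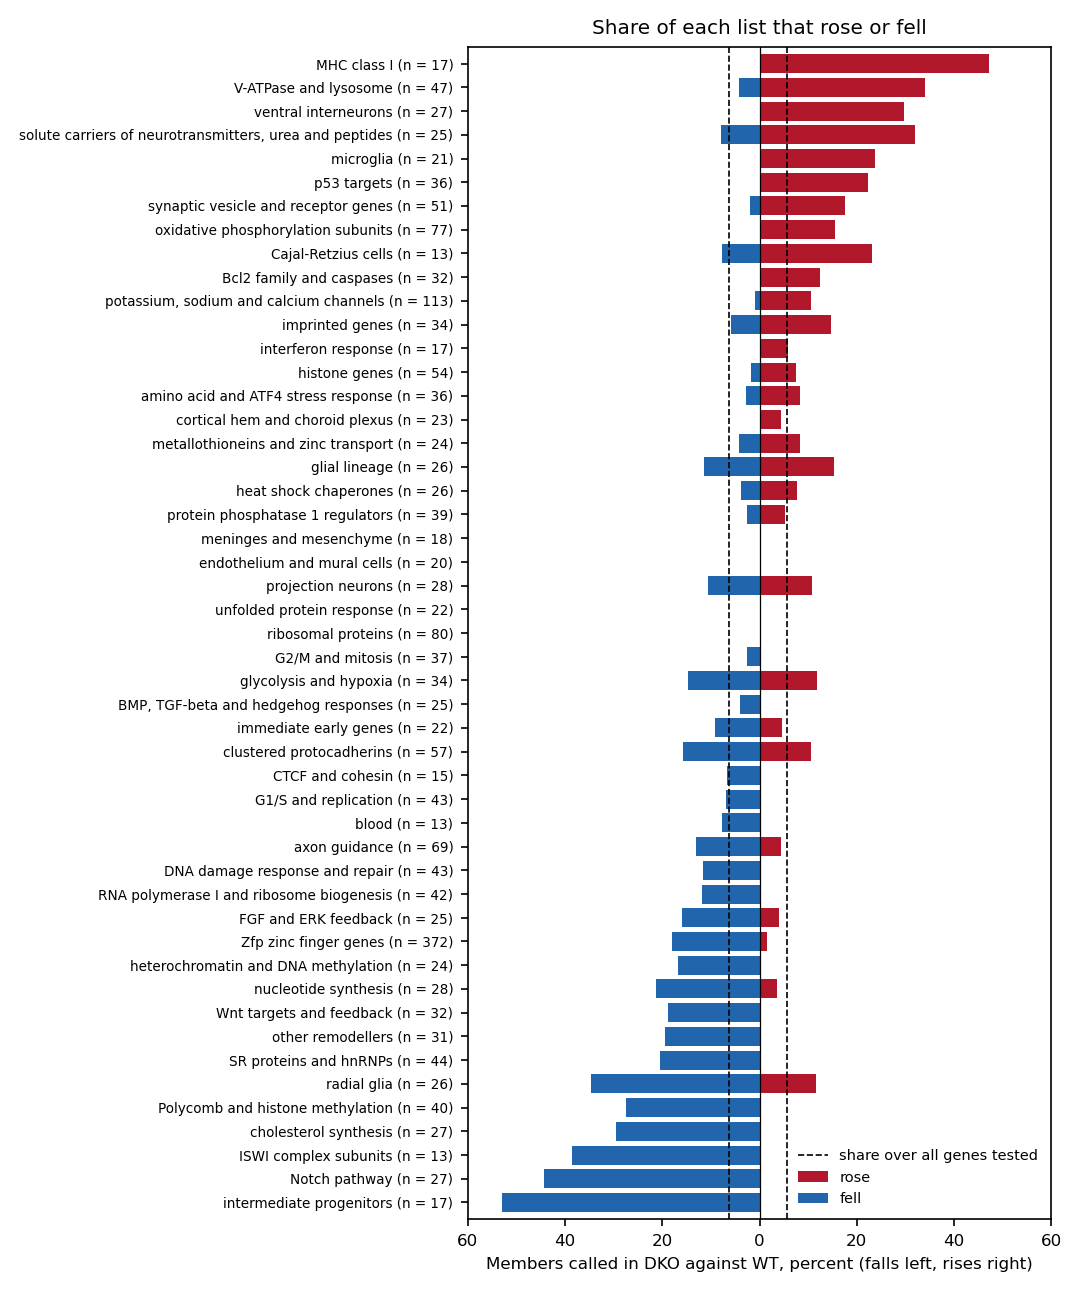
Percent of the tested members of each gene list that rose (right) and fell (left) in DKO against WT, with dashed lines at the percent over all genes. Among the lists drawn, intermediate progenitors (52.9%), the Notch pathway (44.4%) and ISWI subunits (38.5%) have the largest shares of falls. The ISWI falls include Smarca5, the deleted gene, and radial glia follow at 34.6%. MHC class I (47.1%) and V-ATPase and lysosome genes (34%) have the largest shares of rises.

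In the list of V-ATPase and lysosome genes 16 of 47 rose (34%) and 2 fell (4.26%), against 5.61% and 6.35% over all genes. Of 18 subunits of the V-ATPase, the proton pump that acidifies lysosomes and synaptic vesicles, 8 rose and none fell. Atp6v0e2 was at 89.5, 95.9 and 99.2 CPM in DKO, compared with 69.9, 73.5 and 72.8 CPM in WT, and Atp6v1a at 136.2 to 146.6 CPM against 118.7 to 120.5 CPM. The proteases Ctsd (146.7, 136.0 and 154.5 CPM in DKO, 101.2, 103.7 and 104.4 CPM in WT), Ctsl (0.58), Lgmn (0.43) and Ctsb (0.25) and the channel gene Mcoln1 (0.37) rose, and Ctsz (−0.22) and Tpp1 (−0.30) fell. In Ctsd 33.2% of the words are shared with other genes. Mcoln1 was at 61 to 70.2 CPM in DKO, 50.1 to 53.7 CPM in WT and 62.9 to 67.5 CPM in Smarca1 KO. Calls of Atp6v0e2, Atp6v1a, Ctsd, Ctsl, Lgmn and Mcoln1 held without any 1 library, and the rises in the list numbered 6 (WT replicate 1) to 20 (Smarca1 KO replicate 3). Microglia express cathepsins strongly, and their markers rose in the same libraries. Their part here was not tested. Of 77 nuclear subunits of oxidative phosphorylation 12 rose (15.6%) and none fell, with 68 above 0 and a median of 0.12. The cytochrome c oxidase genes Cox6a1 (0.33) and Cox6b1 (0.24) had the smallest p, and Cox6a1 was at 104.4, 91 and 99.4 CPM in DKO, compared with 76.4, 78.7 and 79.7 CPM in WT. The rises numbered 1 without WT replicate 1 and 19 without Smarca1 KO replicate 3.

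Of 34 glycolysis and hypoxia genes 4 rose and 5 fell (11.8% and 14.7%, against 5.61% and 6.35% over all genes). The glucose transporter gene Slc2a3 (0.82), the phosphofructokinase gene Pfkp (0.85), Hk1 (0.41) and Ankrd37 (0.73) rose, and Aldoc, Pkm, Bhlhe40 (−0.73), Ddit4 (−0.22) and Hif1a (−0.17) fell. Slc2a3, the neuronal form, was at 40.2, 44.1 and 46.9 CPM in DKO, compared with 27.1, 23.5 and 23.7 CPM in WT, and Pfkp at 123.5, 151.5 and 161.3 CPM against 79.9 to 81.8 CPM, with 143.5 CPM in Smarca1 KO replicate 3. Of 27 cholesterol genes 8 fell (29.6%) and none rose, with a median of −0.14. Stard4 (−0.37), Idi1 (−0.38), Insig1 (−0.27), Dhcr7 (−0.21) and Scap (−0.20) fell, whereas values of the squalene epoxidase gene Sqle (−0.01) overlapped between the groups. The cholesterol falls numbered 0 without WT replicate 1 and 10 without Smarca1 KO replicate 3. Of 28 nucleotide synthesis genes 6 fell (21.4%), among them Cad (−0.31), Impdh2 (−0.30, 43.7% of its words shared), Gart (−0.30) and Tyms (−0.38), and Prps2 rose (3.57%). Cad was at 132.7 to 139.3 CPM in DKO, 165.8 to 172.4 CPM in WT and 117.2 to 138.0 CPM in Smarca1 KO. The nucleotide synthesis falls numbered 0 without WT replicate 1 and 13 without Smarca1 KO replicate 3.

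Of 44 SR protein and hnRNP genes 9 fell (20.5%, against 6.35% over all genes) and none rose, with a median of −0.12. DESeq2 called 14 falls and 1 rise. EdgeR's falls had log2 fold changes of −0.30 (Hnrnpf, with 38.5% of its words shared) to −0.14 (Hnrnpdl), and they numbered 0 without DKO replicate 2 or 3 or any 1 WT replicate and 23 without Smarca1 KO replicate 3. Of 42 genes of RNA polymerase I and ribosome biogenesis 5 fell (11.9%), among them Polr1a, the largest subunit of the polymerase (−0.26). Polr1a was at 56.8 to 61.7 CPM in DKO, 69.7 to 72.2 CPM in WT and 59.1 to 61.8 CPM in Smarca1 KO. Of 80 ribosomal protein genes and 22 genes of the unfolded protein response edgeR called none, with medians of 0.04 and 0.02. At an unadjusted p under 0.05 there were 4 rises and 1 fall in the first list and 4 rises in the second, and DESeq2 called 2 rises with 1 fall and 1 rise. Of 26 heat shock genes Hspa1a rose (0.347 to 0.768 CPM in WT, 1.78 to 2.64 CPM in DKO, 70.1% of its words shared), as did Hspa2 (0.65), and Hsp90ab1 fell. In the amino acid and ATF4 list Sesn2, Vldlr (0.30) and Sars (0.13) rose and Shmt2 (−0.31) fell among 36 tested. Rises and falls were 7.69% and 3.85% of the heat shock list and 8.33% and 2.78% of the ATF4 list. Over all genes they were 5.61% and 6.35%.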

How the data were processed

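Per the submitters' processing notes, Salmon 1.4.0 made the values of the 9 libraries, with mm10 and DESeq2 named beside it. Index, annotation release and library type: not given in the sources used here. For each transcript the authors deposited an estimated count, a TPM value and an effective length, per the file headers. TPM was not tested.

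Gene counts are sums of the estimated counts of their transcripts (35498 genes; 569 of 116546 transcripts matched no gene) rounded to whole numbers. Genes passing edgeR's filterByExpr (15773) were scaled by TMM and tested in edgeR 4.0.16 (R 4.3.3) by the quasi-likelihood F test on the means of 3 groups, with Benjamini-Hochberg adjustment. The SE is the log2 fold change divided by the square root of F. The common coefficient of variation that edgeR estimated between libraries of a group was 10.2%, a spread that could be technical. The fit was tested on simulated data with known changes. Where strand was not used in counting, reads of overlapping genes cannot be told apart. The shared percent of a gene is that of its 31-base words that occur in transcripts of other genes.

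The gene lists and the members were chosen with earlier results of these data known, so no list is independent support. Named genes were Smarca5 and Smarca1, and, among called genes without overlap, with mean log2 CPM no lower than 1 and symbols other than predicted models, the 20 largest rises and falls, the 10 of each with the smallest p and the 5 of each with the largest CPM difference. Up to 6 called members of each list by p, uncalled markers and called neighbours within 300 kb were added. Other called members, among them Hes5, Dll1, Dll3, Rbpj, Hey1, Mfng, Gli3, Sox9, Fabp7, Tnc, Dlx1, Sp8, Grin2b, Gabra5, Snap25, Slc6a11, Epha10, Cspg5, Tap2, Nlrc5, Ndn, Ddit4l, Ctsb, Ctsz, Tpp1, Hk1, Ankrd37 and Hnrnpdl, and the runs of neighbours, were chosen after their values were seen. Alternatives were RLE scaling, DESeq2 1.42.0, other filters, fewer libraries, effective-length offsets, a replicate block and a Y-linked covariate. Values of a few genes are not reported here.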

Additional observations from a re-analysis of the deposited data

How the results depend on the processing

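Smarca5 kept its fall under every alternative run (log2 fold change −1.77 to −1.54). Smarca1, which was not called, turned from 0.05 to −0.05 (adjusted p = 0.954) with the Y-linked covariate. The counts of 885 rises and 1002 falls became 1375 rises with DESeq2, 1691 rises and 1760 falls with only DKO and WT fitted, 587 rises with effective-length offsets, and 3 rises and 3 falls with the Y-linked covariate. Leaving out 1 library gave 175 to 1521 rises and 259 to 1720 falls. With RLE size factors there were 861 and 1055, with no filter 851 and 911, and with at least 1 CPM in 3 libraries 897 and 1032. The replicate block gave 807 rises and 938 falls. Deviations of same-numbered DKO and WT libraries correlated at −0.027, −0.063 and −0.032, so no pairing by replicate number was seen. With 3 libraries per group such correlations cannot exclude a pairing. Of 246 named called genes other than Smarca5, all kept their direction in each alternative. Calls were kept by 246 with DESeq2, 229 with the block, 201 with effective-length offsets and 3 with the Y-linked covariate, namely Plcd4, Prps2 and Hccs. The causes were not tested. The limit that depth sets was not tested. Each compared library held at least 28982116 counts.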
